A study of Bos taurus with 6 samples.

Results

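The genes described here are 10 markers of the supporting cells of skeletal muscle, 5 of fibro-adipogenic progenitors (PDGFRA, CD34, THY1, PI16 and DPP4) and 5 of mural cells (PDGFRB, RGS5, ACTA2, TAGLN and MYH11). They were chosen by gene name for their known roles, but with earlier results of these data already known. Expression was summed for 18010 genes, and 9 of the 10 were among the 9781 genes tested. The libraries came from longissimus dorsi muscle at 18 months of age, 3 from Shandong black cattle and 3 from Luxi cattle, and each was made from a single animal. Shandong black cattle combine Japanese black, Luxi and Bohai black cattle, while Luxi cattle are a local yellow cattle breed. The same feeding standard is given for both breeds, but the animals came from separate companies, so breed and origin cannot be told apart. The study compared the breeds for genes of lipid metabolism in muscle.

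Fibro-adipogenic progenitors are mesenchymal cells between the muscle fibres. They carry the receptor PDGFRA, lay down extracellular matrix and can become fat cells. Mural cells wrap blood vessels: pericytes sit on capillaries and carry the receptor PDGFRB and the G protein regulator RGS5, while smooth muscle cells surround larger vessels and use the contractile proteins ACTA2, TAGLN and MYH11. Several of these markers are shared, since endothelial cells also carry CD34 and pericytes can express ACTA2.

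Expression is given as FPKM, a level scaled to the length of the transcript and to the amount of aligned sequence of the library. It is summed over the transcripts of a gene, so that levels of different genes are compared per length. The Luxi libraries rested on 17.5 to 17.99 gigabases of aligned sequence and the Shandong black libraries on 14.1 to 14.6. Mean read coverage per base, added over the transcripts of a gene, was 18.4 to 2355 for the 9 tested marker genes. The labelled tissue was checked against 8 muscle fibre markers, among them ACTA1 and CKM, which added up to between 23442 and 71528 FPKM in each animal. Luxi replicate 1 stood apart from the other animals. It had the lowest muscle fibre sum, 23442 FPKM against 43536 or more in the rest, and the highest sum of 10 endothelial markers, 121 FPKM against at most 58.8. ACTA1 alone made up 12237 of the 23442 FPKM. CKM and MYH7 were also lowest in this animal, while MB, MYH1, MYH2, TNNT1 and TNNT3 were not. Results that rest on this animal are therefore also given without it.

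Of the 9 marker genes tested, 0 were called different between the breeds, where a call asked for a limma adjusted p under 0.05 and a change of 1 or more on the log2 scale, up or down. Over all genes tested, 2.57% were called, 1.54% as higher and 1.02% as lower in Luxi cattle. At an unadjusted p under 0.05 there were 3 of the 9 (THY1, PI16 and MYH11), against 21.8% of all genes tested (15.0% higher and 6.81% lower in Luxi cattle). The animals of the breeds did not overlap for 3 marker genes (PDGFRA, CD34 and THY1), each higher in Luxi cattle, where 29.1% of all genes tested were separated, 20.0% in that direction and 9.13% in the other. The mean was higher in Luxi cattle for 8 of the 9, and the median log2 fold change was 0.38, beside 0.13 over all genes tested. With median-of-ratios size factors these medians were 0.25 and 0.02. Without Luxi replicate 1, however, the mean was higher in Luxi cattle for only 4 of the 9, against 6129 of the 9707 genes tested in that fit. The median was -0.22, beside 0.16 over all genes tested, so the direction of this summary rests on 1 animal. In bulk muscle, fewer cells of a type and less RNA per cell cannot be told apart.

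**Figure D1:**
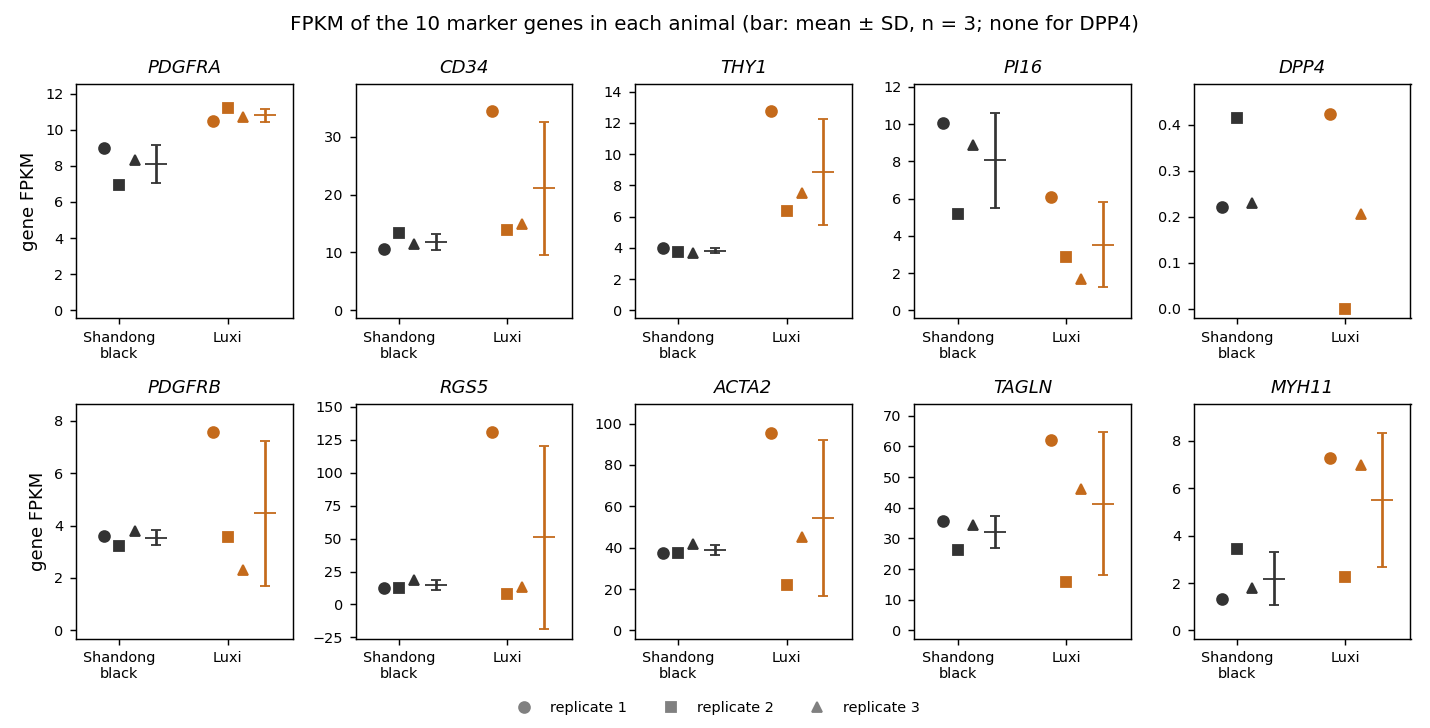
FPKM of the 10 marker genes (y axis, linear, 1 scale per gene) in each of 3 Shandong black (dark) and 3 Luxi cattle (orange), with the mean ± SD of each breed as a bar except for DPP4, which is listed at 0 in one animal. Luxi replicate 1 is the highest animal for 7 of the 9 tested genes, while PDGFRA is separated between the breeds with little spread.

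Among the fibro-adipogenic markers, PDGFRA, the receptor for PDGF-A and PDGF-C that defines these cells (chromosome 6, 69723778 to 69771549, plus strand, ARS-UCD1.2), had the steadiest level. Its FPKM was 9.01, 6.96 and 8.35 in Shandong black cattle and 10.5, 11.2 and 10.7 in Luxi cattle, that is 8.10 ± 1.05 against 10.8 ± 0.364 (SD, n = 3 each). Every Luxi animal was above every Shandong black animal, and Luxi replicate 1 was the lowest of its breed. The log2 fold change was 0.38 (SE 0.18, 95% interval -0.035 to 0.79), and it did not pass the limma test (adjusted p = 0.262). The exact permutation p was 0.1, which is the smallest that 3 against 3 animals can give. The breeds were also separated with size factors, but overlapped when only reference transcripts were summed, since Luxi replicate 3 then had 8.69 FPKM and Shandong black replicate 1 had 9.01.

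THY1, a surface glycoprotein of mesenchymal cells also named CD90 (chromosome 15, 29981019 to 29986913, minus strand), gave the smallest p of the marker genes. It measured 4.01, 3.76 and 3.67 FPKM in Shandong black cattle and 12.7, 6.35 and 7.51 in Luxi cattle. The breeds were separated, and the Shandong black cattle lay close together (3.81 ± 0.177, against 8.87 ± 3.40 in Luxi cattle, SD, n = 3 each). Its log2 fold change of 0.98 (SE 0.25, 95% interval 0.39 to 1.57) came with a limma adjusted p of 0.0871. Without Luxi replicate 1, whose level was 1.70 times that of the next animal, the log2 fold change was 0.72 with a limma adjusted p of 0.0406, still under the fold change asked for. One reference transcript of 4 exons carried 100% of its FPKM in every animal.

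The separation of THY1 differed along the transcript. In exon 4, the last one, coverage per aligned gigabase was 3.48, 3.30 and 3.32 in Shandong black cattle and 12.3, 6.22 and 7.51 in Luxi cattle, with no overlap. The breeds were separated in 2 of 4 exons, exons 3 and 4, of 336 and 1480 bases. They overlapped in exons 1 and 2, which are short, at 47 and 61 bases. Over 960 genes, the median log2 ratio of coverage on the 3′ side of the transcript midpoint to that on the 5′ side ran from -0.433 to -0.288 in Shandong black cattle and from -0.401 to -0.228 in Luxi cattle. Its part in the THY1 exon values was not tested.

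CD34, a sialomucin of fibro-adipogenic progenitors and of endothelial cells (chromosome 16, 75466180 to 75489273, plus strand), was dominated by one animal. The Shandong black cattle had 10.6, 13.3 and 11.5 FPKM and the Luxi cattle 34.4, 13.9 and 14.9. Luxi replicate 1 was 2.30 times the next animal, and the other Luxi cattle were just above the highest Shandong black animal. Its log2 fold change was 0.67 (SE 0.35, limma adjusted p = 0.303), and without Luxi replicate 1 it was 0.28. The separation was lost with size factors and when only reference transcripts were summed. The endothelial marker sum was highest in the same animal, as given above, and its part in the CD34 value was not tested.

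PI16, a peptidase inhibitor that marks adventitial fibroblasts and their progenitors (chromosome 23, 10861065 to 10877631, plus strand), was the only tested marker gene with a lower mean in Luxi cattle. Its FPKM was 10.1, 5.19 and 8.88 in Shandong black cattle and 6.06, 2.84 and 1.67 in Luxi cattle, that is 8.05 ± 2.55 against 3.52 ± 2.27 (SD, n = 3 each). The breeds overlapped at Luxi replicate 1 and Shandong black replicate 2. A log2 fold change of -1.08 (SE 0.39, 95% interval -1.98 to -0.17) did not pass (limma adjusted p = 0.165, exact permutation p = 0.2). Without Luxi replicate 1 it was -1.46 and was called (limma adjusted p = 0.0426), the 1 marker gene called in that fit, in which 6.11% of all genes tested were called. In Shandong black replicate 2, 2.48 of the 5.19 FPKM came from a transcript assembled from the reads, and with reference transcripts only the log2 fold change was -0.83 (limma adjusted p = 0.404).

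DPP4, a dipeptidyl peptidase that marks the same progenitors (chromosome 2, 34382851 to 34466668, plus strand), had a coverage of at most 7.61 and was not tested. It was listed at 0.220, 0.413 and 0.230 FPKM in Shandong black cattle and at 0.423, 0 and 0.205 in Luxi cattle. Apart from 0.105 FPKM in Luxi replicate 1, all of this came from assembled pieces of the gene, so no order of the breeds was read from it.

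PDGFRB, the receptor for PDGF-B and PDGF-D that pericytes need (chromosome 7, 61473641 to 61511258, minus strand), showed no detectable difference between the breeds. It measured 3.62, 3.21 and 3.78 FPKM in Shandong black cattle and 7.56, 3.55 and 2.29 in Luxi cattle. The Luxi cattle held both the highest and the lowest animal. The log2 fold change was 0.15 (SE 0.33, 95% interval -0.63 to 0.94, limma adjusted p = 0.819). With reference transcripts only it was -0.02, and without Luxi replicate 1 it was -0.23. In Luxi replicate 1, reference transcripts made up 4.48 of the 7.56 FPKM.

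RGS5, a regulator of G protein signalling enriched in pericytes (chromosome 3, 6159079 to 6212129, plus strand), had the widest spread. The Shandong black cattle had 12.5, 12.8 and 18.7 FPKM, and the Luxi cattle had 131, 8.22 and 13.5. Luxi replicate 1 was 6.99 times the next animal, while Luxi replicate 2 was the lowest of all animals. The log2 fold change of 0.75 (SE 0.90, 95% interval -1.36 to 2.87, limma adjusted p = 0.656) turned to -0.42 without Luxi replicate 1 (limma adjusted p = 0.347). The high value was not that of a single exon: in each of the 5 exons this animal was between 5.001 and 6.86 times the next.

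**Figure D2:**
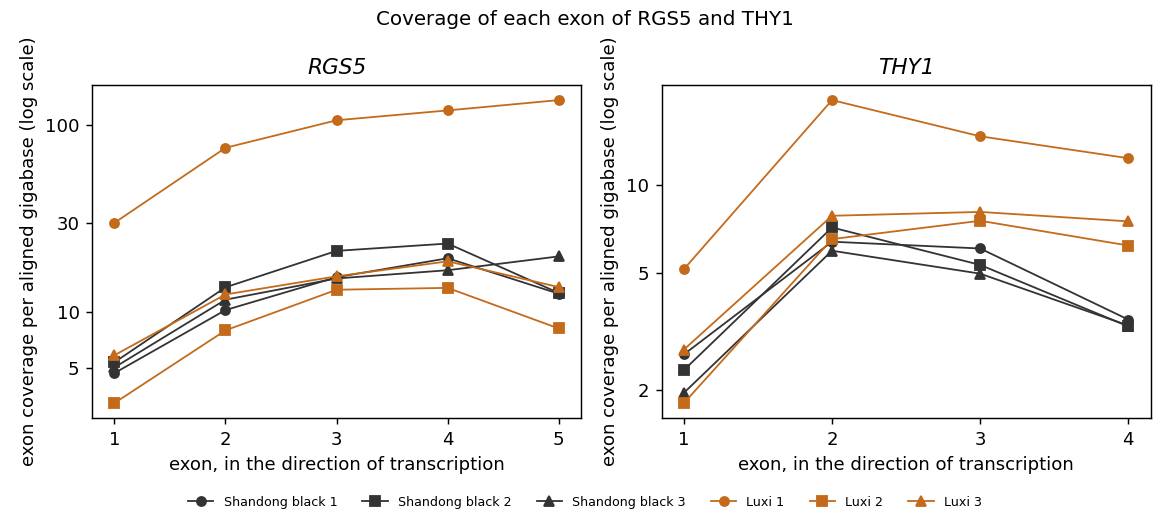
Mean coverage of each exon divided by the aligned gigabases of the library (y axis, log scale) for RGS5 (5 exons) and THY1 (4 exons), 1 line per animal, dark for Shandong black and orange for Luxi cattle. For RGS5, Luxi replicate 1 lies above all other animals in every exon, while for THY1 all 3 Luxi cattle lie above the Shandong black cattle in exons 3 and 4.

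ACTA2, the smooth muscle alpha actin (chromosome 26, 10626812 to 10679430, minus strand), was the most abundant mural marker in Shandong black cattle. Its FPKM was 37.6, 37.6 and 41.7 there and 95.6, 22.1 and 45.0 in Luxi cattle. The Shandong black cattle lay between the Luxi animals. For ACTA2, the log2 fold change was 0.23 (SE 0.49, 95% interval -0.91 to 1.37, limma adjusted p = 0.814) and, without Luxi replicate 1, -0.29. Muscle alpha actins are near-identical in protein sequence, and ACTA1, the skeletal muscle form, measured from 12237 FPKM in Luxi replicate 1 to 54910 in Luxi replicate 2. How reads were shared between the actin genes was not tested. ACTA2 was highest and ACTA1 lowest in the same animal, and Luxi replicate 1 was 1.93 to 2.47 times the next animal over the 9 exons of ACTA2.

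TAGLN, the actin-binding protein transgelin (chromosome 15, 27889556 to 27894949, plus strand), followed the same order of Luxi animals. It had 35.7, 26.3 and 34.4 FPKM in Shandong black cattle and 62.0, 15.9 and 46.1 in Luxi cattle. The lowest and the highest animal were both Luxi cattle. Its log2 fold change was 0.17 (SE 0.48, 95% interval -0.95 to 1.28, limma adjusted p = 0.865), and -0.22 without Luxi replicate 1.

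MYH11, the smooth muscle myosin heavy chain (chromosome 25, 14124960 to 14252447, minus strand), was low in every animal. It measured 1.31, 3.45 and 1.79 FPKM in Shandong black cattle and 7.28, 2.24 and 6.99 in Luxi cattle, that is 2.18 ± 1.12 against 5.50 ± 2.83 (SD, n = 3 each). Shandong black replicate 2 was above Luxi replicate 2, so the breeds overlapped. The log2 fold change of 0.97 (SE 0.41, 95% interval 0.0020 to 1.93) did not pass (limma adjusted p = 0.228, exact permutation p = 0.2). Without Luxi replicate 1 it was 0.73, and the 95% interval, -0.38 to 1.84, then included 0 (limma adjusted p = 0.313).

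The overlap in MYH11 rested on how the gene was put together. Shandong black replicate 2 had no expression on the reference transcripts, and its 3.45 FPKM was the sum of 4 assembled pieces that each cover a stretch of the gene. When assembled pieces were weighted by their length, an alternative chosen after the values were seen, this animal had 1.65 FPKM. All Luxi cattle were then above all Shandong black cattle, with a log2 fold change of 1.22 that again did not pass (limma adjusted p = 0.109). With reference transcripts only, this animal was at 0 because all its counted MYH11 was on assembled pieces, which fixed its place below the Luxi cattle. The breeds were separated in that sum, and the log2 fold change, enlarged by the 0, was 1.69 (limma adjusted p = 0.135). The ratio of ACTA2 to MYH11 was 28.8, 10.9 and 23.2 in Shandong black cattle and 13.1, 9.86 and 6.43 in Luxi cattle. Its log2 difference of -1.04 did not pass (exact permutation p = 0.2, 0.467 adjusted over 7 ratios). TAGLN to MYH11 was 27.3, 7.62 and 19.2 against 8.52, 7.11 and 6.59, a log2 difference of -1.11 (exact permutation p = 0.2, adjusted p = 0.467). With the pieces weighted by length, Shandong black replicate 2 had ratios of 22.8 and 15.9, and the breeds did not overlap in either ratio.

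**Figure D3:**
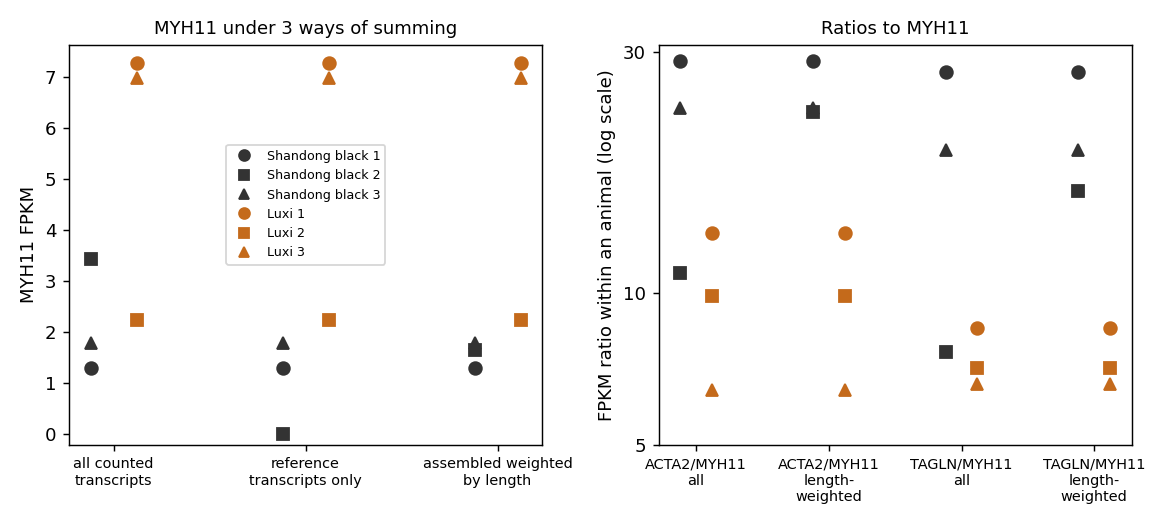
MYH11 FPKM under 3 ways of summing its transcripts (left, linear axis) and the within-animal ratios of ACTA2 and TAGLN to MYH11 (right, log scale), 1 point per animal. Only Shandong black replicate 2 moves between the ways of summing, from 3.45 FPKM with all counted transcripts to 0 with reference transcripts only and 1.65 when assembled pieces are weighted by length.

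The remaining 5 of the 7 ratios between marker genes, which do not depend on how libraries are scaled, were also compared. THY1 to PDGFRA was 0.445, 0.540 and 0.439 in Shandong black cattle and 1.21, 0.567 and 0.702 in Luxi cattle. The breeds were separated, with a log2 difference of 0.73, which was 0.42 without Luxi replicate 1. The exact permutation p of 0.1 (adjusted p = 0.467) was the smallest the test can give. PDGFRA to PDGFRB, the fibro-adipogenic over the mural receptor, was 2.49, 2.17 and 2.21 in Shandong black cattle and 1.39, 3.16 and 4.67 in Luxi cattle. The Shandong black animals lay close together and between the Luxi ones (log2 difference 0.26, exact permutation p = 0.7). Without Luxi replicate 1 the log2 difference was 0.75, with the other Luxi animals above every Shandong black animal, and without Luxi replicate 3 it was -0.13. CD34 to PDGFRA, RGS5 to PDGFRB and ACTA2 to TAGLN also overlapped between the breeds over all animals, with log2 differences of 0.29, 0.60 and 0.065. These were -0.15, -0.14 and -0.071 without Luxi replicate 1.

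Luxi replicate 1 was the highest of the 6 animals for 7 of the 9 tested marker genes, against 23.2% of all genes tested. It was at least 1.5 times the next animal for 5 of them (CD34, THY1, PDGFRB, RGS5 and ACTA2), against 7.05% of all genes tested. The 5 mural markers together measured 90.7, 83.4 and 100.4 FPKM in Shandong black cattle and 303, 52.0 and 114 in Luxi cattle, and RGS5 made up 131 of the 303 FPKM. The 5 fibro-adipogenic markers together measured 33.9, 29.6 and 32.6 FPKM and 64.1, 34.3 and 35.0 FPKM. Within Luxi cattle both sums were thus highest in replicate 1. Endothelial markers were highest in this animal for 8 of 10 genes, and the muscle fibre sum, led by ACTA1, was lowest there. The part of these in the marker gene values was not tested. Without Luxi replicate 1, PDGFRB, RGS5, ACTA2 and TAGLN had a lower mean of log2(FPKM + 1) in Luxi cattle, and PDGFRA, CD34, THY1 and MYH11 a higher one.

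**Figure D4:**
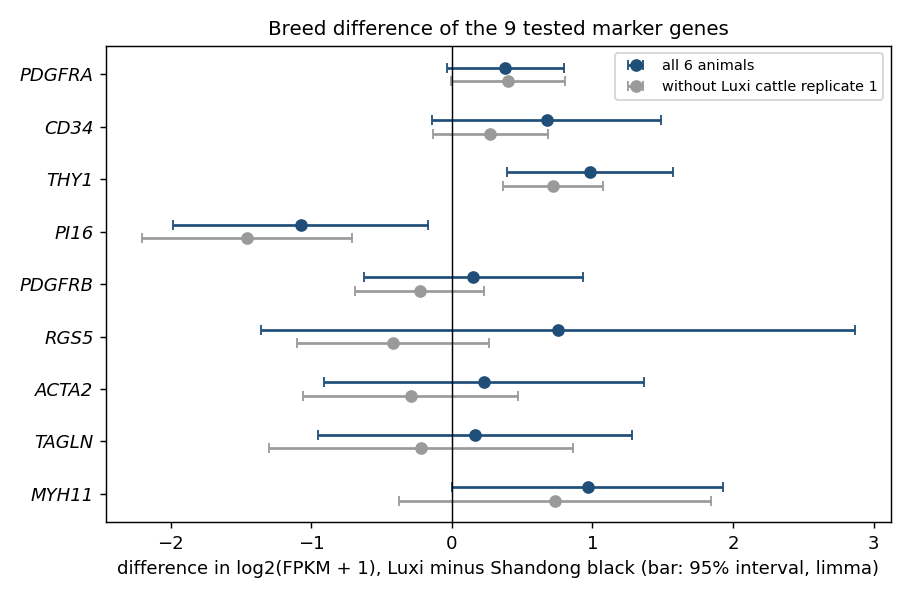
Difference in log2(FPKM + 1), Luxi minus Shandong black cattle (x axis), for the 9 tested marker genes, with 95% intervals from limma, over all 6 animals (blue) and without Luxi replicate 1 (grey). PDGFRB, RGS5, ACTA2 and TAGLN change sign, and for RGS5 the value goes from 0.75 to -0.42.

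The ligands of the 2 PDGF receptors are made by endothelial cells, muscle and other cells. Of 4 ligands, 0 were called, and the median log2 fold change was 0.36. PDGFB, by which endothelial cells recruit pericytes, was 5.51, 2.15 and 2.53 FPKM in Shandong black cattle and 12.1, 2.64 and 3.48 in Luxi cattle (log2 fold change 0.52, limma adjusted p = 0.579). Its log2 fold change without Luxi replicate 1 was -0.045, and the median of the ligands was 0.05, with 2 higher and 2 lower in Luxi cattle. PDGFA, a ligand of PDGFRA, had a log2 fold change of 0.50 over all animals (limma adjusted p = 0.350). Without Luxi replicate 1 that of PDGFA was 0.82 (limma adjusted p = 0.0435), under the size asked for. PDGFD, a ligand of PDGFRB, was 1.79, 1.36 and 1.42 against 0.742, 0.725 and 0.771. The breeds were separated for it, and the log2 fold change was -0.53 (limma adjusted p = 0.122).

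Of 15 tested genes in a list of other fibro-adipogenic progenitor and fibroblast markers, 3 were called higher and 0 lower in Luxi cattle. The median log2 fold change was 0.60. The 3 encode collagens. COL3A1, of fibrillar collagen III, was 22.4, 20.4 and 23.2 FPKM in Shandong black cattle and 194, 145 and 192 in Luxi cattle (log2 fold change 2.94, limma adjusted p = 0.00733). COL15A1, a basement membrane zone collagen, rose by 1.95 on the log2 scale (limma adjusted p = 0.0105), and COL1A2, a chain of collagen I, by 1.67 (limma adjusted p = 0.0322). COL3A1 was thus separated between the breeds by a wide margin, while PDGFRA, which marks the same cells, was at 10.5 to 11.2 FPKM in Luxi cattle against 6.96 to 9.01. Of the 15 genes, 11 had a higher mean in Luxi cattle and 4 a lower one. The 11 include TCF4 (log2 fold change 0.03), and whether this symbol names the gene used as a fibroblast marker was not checked. The breeds were separated for 6 with Luxi cattle higher, against 20.0% of all genes tested, and for 1 with Luxi cattle lower, against 9.13%. That 1 was CD248, at 4.14, 3.44 and 4.34 FPKM in Shandong black cattle and 2.08, 2.68 and 3.35 in Luxi cattle (log2 fold change -0.43, limma adjusted p = 0.231). Among those that did not pass, COL1A1, the other chain of collagen I, and OSR1, a transcription factor of these progenitors, were separated, with log2 fold changes of 1.65 and 1.08 (limma adjusted p = 0.0589 and 0.0621). DCN, LUM, FBN1 and GSN had log2 fold changes of 0.60, 0.26, -0.13 and -0.15.

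Of 8 tested genes in a list of other pericyte markers, 1 was called higher and 0 were called lower in Luxi cattle. The log2 fold change was positive for 4 of them and negative for 4, and its median was 0.03. The gene called was NOTCH3, the Notch receptor of mural cells. It was at 1.00, 0.915 and 1.14 FPKM in Shandong black cattle and 4.36, 2.45 and 3.16 in Luxi cattle (log2 fold change 1.08, limma adjusted p = 0.0412). Without Luxi replicate 1 its log2 fold change was 0.91 (limma adjusted p = 0.0300), under the size asked for, and the list median was -0.26. HEYL, a transcription factor downstream of Notch, was 1.87, 0.759 and 1.86 FPKM against 7.14, 3.18 and 4.95 (log2 fold change 1.27, limma adjusted p = 0.0740). Both were separated between the breeds with Luxi cattle higher. ANPEP was separated with Luxi cattle lower, at 1.23, 1.56 and 1.64 FPKM against 1.05, 0.889 and 1.18. Its log2 fold change was -0.28 (limma adjusted p = 0.352), and that of MCAM, which overlapped, was -0.69 (limma adjusted p = 0.327). The sum over all 12 genes of the pericyte list ran from 33.1 to 38.9 FPKM in Shandong black cattle and from 25.7 to 54.3 in Luxi cattle.

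Among 12 other smooth muscle contractile genes 0 were called, and the median log2 fold change was 0.46. The list includes TPM1, TPM2 and DES, which muscle fibres also express. TPM1, a tropomyosin, was 3.05 higher in Luxi cattle on the log2 scale (limma adjusted p = 0.106), and LMOD1, the smooth muscle leiomodin, 1.66 higher (limma adjusted p = 0.135). LMOD1 was 3.48, 8.47 and 5.88 FPKM in Shandong black cattle and 15.2, 47.0 and 10.7 in Luxi cattle, with its highest value in Luxi replicate 2, where ACTA2, TAGLN and RGS5 were lowest. Of SRF and the myocardin family, which drive transcription of ACTA2, TAGLN and MYH11, 3 were tested and 0 called. MKL1 and MKL2, the myocardin-related coactivators, had log2 fold changes of 1.13 and 0.64 (limma adjusted p = 0.110 and 0.106), and each was separated between the breeds. MYOCD, myocardin itself, was under 1 FPKM in every animal.

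**Figure D5:**
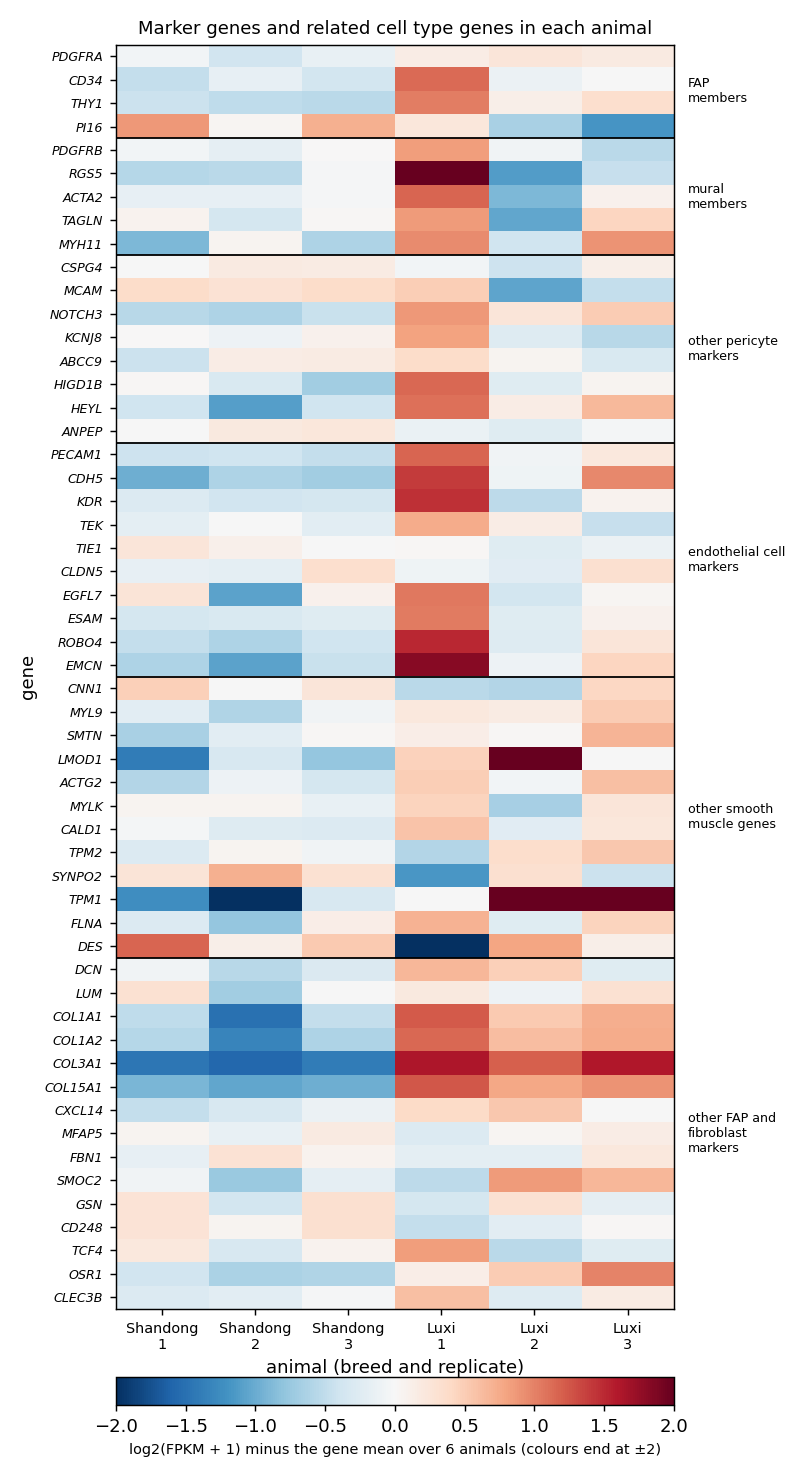
log2(FPKM + 1) of each gene minus its mean over the 6 animals (colour, ends at ±2) for the tested marker genes (members; FAP, fibro-adipogenic progenitor) and 4 related lists, 1 column per animal. In Luxi replicate 1 the median of the 5 mural markers is 0.95 and that of the 10 endothelial markers 1.11, while in Luxi replicate 2 the mural median is -0.91.

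Lists for the other cells of the sample were compared in the same fit. Of 10 endothelial markers 0 were called, with a median log2 fold change of 0.63. CDH5 and EMCN, an adhesion molecule and a sialomucin of endothelium, had log2 fold changes of 1.52 and 1.43 (limma adjusted p = 0.0771 and 0.137), and 1.198 and 0.88 without Luxi replicate 1, where the list median was 0.16. The endothelial sum was 31.9 to 39.1 FPKM in Shandong black cattle and 121, 41.3 and 58.8 in Luxi cattle. Of 7 tested fat cell markers 5 were called lower in Luxi cattle (ADIPOQ, PLIN1, FABP4, CIDEC and LIPE). The sum over all 8 genes of the fat cell list was 134 to 196 FPKM in Shandong black cattle against 13.2 to 37.8. For fat cells, no tested marker had a higher mean in Luxi cattle, and the sum was lowest in Luxi replicate 1. The part of the fat cell content in the marker gene values was not tested.

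Tendon cell markers held 1 call among 4 genes tested, COMP, a cartilage and tendon matrix protein, which fell by 3.52 on the log2 scale (limma adjusted p = 0.0362), while FMOD had a log2 fold change of -0.96. Lists for blood and immune cells (4 tested), Schwann cells (1 tested), satellite cells (2 tested) and muscle fibres (8 tested) held 0 calls. Their genes with the largest log2 fold changes were CSF1R (-0.66) and CD14 (0.30), S100B (-2.33), MYF5 (0.53) and CDH15 (0.27), and MYH2 (3.57) and TNNT3 (2.95). S100B is also made by fat cells. HBB, a haemoglobin chain, stayed under 1 FPKM in every animal. Leaving out Luxi replicate 1, the calls of the lists were the same apart from NOTCH3, which was lost, and SMOC2, OSR1, TPM1, SRF and MKL1 (higher in Luxi cattle) and MCAM, FMOD and S100B (lower), which were added. VWF, ALAS2, SOX10 and PAX7 were not analysed here.

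The genes whose pattern over the 6 animals was most like that of a marker gene were found by the root mean square difference of centred log2(FPKM + 1), as a description. For PDGFRA they were MTMR10 (0.0413), EGFR (0.0465) and SEL1L (0.0488). For THY1 they included the receptor NOTCH1 (0.0733) and PRKD2 (0.0804), and for CD34 they were SYT7 (0.0326), ANGPTL1 (0.102) and CPLANE1 (0.102). PI16 was nearest to F13A1 (0.164), the A subunit of coagulation factor XIII, then to SNRPD1 (0.222) and KIAA1551 (0.233).

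Among mural markers, PDGFRB was nearest to MME (0.0795), GPT2 (0.0918) and KCNJ8 (0.0979), of which KCNJ8, a potassium channel subunit, is on the pericyte list. The nearest to RGS5 were farther off, at TUT1 (0.198), VNN1 (0.260) and GCFC2 (0.348). ACTA2 was nearest to C1QTNF9 (0.0620), SMIM3 (0.0725) and PIK3C2A (0.112), and TAGLN to LOC112449406 (0.158), CRIP2 (0.163) and MGC148714 (0.166). The nearest genes to MYH11 were LOC100848324 (0.169), LOC104972733 (0.232) and LOC101908406 (0.247). None of the named neighbours of one marker gene was another marker gene.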

How the data were processed

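Total RNA of muscle was sequenced from TruSeq libraries. The authors used Fastp for trimming and HISAT for alignment to ARS-UCD1.2, and StringTie (1.3.3b per the file headers) for each library, strand-aware and guided by the NCBI annotation. The deposited annotation files give coverage, FPKM and TPM for each reference and assembled transcript of a library. Read counts were not used, so count tests were not run, and depth is given as aligned gigabases, computed from coverage over FPKM.

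Gene FPKM was the sum of the reference transcripts and of those assembled transcripts whose bases lay to 50% or more on exons of the gene, same strand. Assembled transcripts left out held 21.6 to 29.8% of the FPKM of a library. A transcript without a record was counted as 0. Genes whose mean FPKM reached 1 in either breed were fitted with limma 3.58.1 in R 4.3.3 (lmFit, eBayes with trend, log2(FPKM + 1), no covariate, Benjamini-Hochberg), so fold changes of low genes are understated. Single values and ratios were compared by exact two-sided permutation tests, whose smallest possible p was 0.1. The fit was tested on simulated data. The study used Cuffdiff, which needs alignments and was not run here. Python 3.11.15, pandas 2.3.3, scipy 1.17.1 and bedtools 2.31.1 were used.

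The marker genes and all lists were chosen with earlier results of these data known. The genes named are the 10 markers, from each list those called and the 2 with the largest log2 fold change in size, and the 3 genes most like each tested marker, of which 1 is not reported here. Genes named beyond these (PDGFA, DCN, LUM, FBN1, GSN, COL1A1, OSR1, SMOC2, CD248, TCF4, MCAM, ANPEP, TPM2, DES, SRF, MYOCD, HBB, ACTA1, CKM, MYH1, MYH7, TNNT1 and MB) were chosen after their values were seen. Alternatives were a pseudocount of 0.1, no filter, TPM, size factors, no trend, a replicate block, reference transcripts only and leaving out each animal. Weighting assembled transcripts by length, a limit of 25% of bases and the list medians without Luxi replicate 1 were added after the data were seen. Same-numbered animals are different animals.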

Additional observations from a re-analysis of the deposited data

Results flagged for a closer look

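Transcripts assembled from the reads ran past the annotated end of RGS5 in 3 animals and were left out of its FPKM, because under 50% of their bases lay on its reference exons. They ended 3519 to 3546 bases beyond position 6212129 of chromosome 3. Luxi replicate 1, the animal with the highest RGS5 level, had 28.1 FPKM there, Luxi replicate 3 had 7.79, and Shandong black replicate 3 had 2.12. The transcript of Luxi replicate 3 had 33.6% of its bases on RGS5 exons, but those of Luxi replicate 1, which began before the gene at 6152429, and of Shandong black replicate 3 had 0%, and whether they belong to RGS5 was not tested. With assembled transcripts counted from 25% of their bases on reference exons, which adds the one of Luxi replicate 3, the log2 fold change of RGS5 was 0.96 (limma adjusted p = 0.542).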

How the results depend on the processing

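Of 135 alternatives run for the 9 tested marker genes, 128 left the direction and the side of the threshold as reported, and 5 genes (PDGFRA, CD34, THY1, PI16 and MYH11) had the same direction in each. The number of genes called, 251, was 63 without the filter (40 higher and 23 lower in Luxi cattle), 163 with reference transcripts only (95 higher) and 135 with a replicate block (79 higher and 56 lower). With size factors, 113 were higher and 137 lower, against 151 and 100. Leaving out 1 animal gave 3 genes (without Shandong black replicate 3) to 593 genes (without Luxi replicate 1), with 2 to 463 higher and 1 to 130 lower, and 0 to 1 marker genes called; the cause was not tested. Over these fits the log2 fold change ran from -1.46 to -0.75 for PI16, -0.23 to 0.46 for PDGFRB, -0.42 to 1.503 for RGS5, -0.29 to 0.74 for ACTA2 and -0.22 to 0.73 for TAGLN, which was also -0.01 without Luxi replicate 3. With reference transcripts only, PDGFRB was -0.017. The log2 ratio ran from -0.13 to 0.75 for PDGFRA to PDGFRB, -0.071 to 0.26 for ACTA2 to TAGLN (-0.043 without Shandong black replicate 1), -0.14 to 1.31 for RGS5 to PDGFRB and -0.15 to 0.56 for CD34 to PDGFRA. Ratios to MYH11 had no value with reference transcripts only, since one animal had none. Same-numbered animals had correlations of deviations of 0.0745 to 0.0869, and for 3 of 3 numbers the best match was the animal of the same number. Whether such animals share more than a number was not tested. The block changed no call of a marker gene. Each fit without 1 animal left a breed with 2, and 3 animals a breed limit the precision of every value.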

Other observations

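The following ratios to the marker receptors were chosen after the values were seen and are given without a test. COL3A1, of collagen III, per PDGFRA was 2.48, 2.93 and 2.78 in Shandong black cattle and 18.5, 12.9 and 17.97 in Luxi cattle, so that the collagen differed far more between the breeds than the receptor of the cells known to make it. PI16 per PDGFRA was 1.12, 0.746 and 1.06 in Shandong black cattle and 0.578, 0.254 and 0.156 in Luxi cattle, without overlap. That separation rested on an assembled PI16 transcript of Shandong black replicate 2, whose ratio was 0.389 with reference transcripts only and 0.574 with assembled transcripts weighted by length, both below Luxi replicate 1, so that the breeds overlapped. The ratios of COL3A1 and NOTCH3 were separated under both ways of summing. NOTCH3 per PDGFRB was 0.277, 0.285 and 0.302 in Shandong black cattle and 0.577, 0.691 and 1.38 in Luxi cattle.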
